A study of Mus musculus with 17 samples.

Results

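The stefin A family was followed in mouse marrow cells that overexpressed microRNAs, through the genes Stfa1, Stfa2, Cstdc4, Cstdc5 and Csta2. All probes annotated with 1 of these 5 symbols were taken, which gave 7 of the 45281 probes on the array and 5 of its 19057 annotated genes. Stfa1 and Stfa2 had 2 probes each, and Cstdc4, Cstdc5 and Csta2 had 1 each. The genes were selected on their measured difference between the microRNA cluster 99b/let-7e/125a and the empty vector in dataset A, where several of them were lower, so that contrast is described here without a test.

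Stefins are small cytosolic proteins of the cystatin superfamily that block papain-like cysteine proteases such as the cathepsins by filling their active-site cleft. Humans have a single stefin A gene, whereas in mice the family has expanded into a block of closely related genes on chromosome 16, with transcripts known from neutrophils, myeloid precursors and skin. The genes are so alike that a short probe may bind the RNA of more than 1 of them, and how each gene's RNA contributes to each signal was not tested, because probe sequences were not used here.

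Messenger RNA was measured on 17 single-colour Illumina bead arrays, in which each probe reports a fluorescence intensity. All groups were primary bone marrow cells of C57Bl/6 mice that had received 150 mg/kg 5-fluorouracil, a drug that removes cycling cells, 4 days earlier. The cells were cultured for 7 days with stem cell factor, IL-11 and Flt3 ligand, transduced with an MXW retroviral vector, and collected as viable EGFP+ cells 5 days after the first transduction. The vector was empty, or carried miR-155, or miR-125a alone, or the miR-cluster 99b/let-7e/125a of which miR-125a is a member. Dataset A held 3 empty-vector, 3 cluster and 2 miR-155 arrays, and dataset B held 3 empty-vector, 3 cluster and 3 miR-125a arrays. The sorted cells may be a mixture, each array averages over them, and the labels name no cell surface marker used in the sort.

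The vectors differ in the microRNA they express. The mature guide strands of the 4 microRNAs are shown because they define the groups, 5′ to 3′ from RefSeq on GRCm38.p6, with the seed (bases 2 to 8) in capitals. The 4 seeds all differ, so none of the 4 microRNAs shares a seed with another.
mmu-miR-99b-5p (chr17:17830194-17830215, plus strand): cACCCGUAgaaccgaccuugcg
mmu-let-7e-5p (chr17:17830366-17830387, plus strand): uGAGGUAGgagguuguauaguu
mmu-miR-125a-5p (chr17:17830817-17830840, plus strand): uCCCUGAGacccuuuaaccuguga
mmu-miR-155-5p (chr16:84714143-84714165, plus strand): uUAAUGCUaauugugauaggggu

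The 160 bases upstream of each annotated start are shown because the 5 genes were lower together in dataset A, 5′ to 3′ on the gene's strand from RefSeq on GRCm38.p6, with the letters TTTAAA in capitals where present.
Stfa1 (chr16:36276988-36277147, plus strand): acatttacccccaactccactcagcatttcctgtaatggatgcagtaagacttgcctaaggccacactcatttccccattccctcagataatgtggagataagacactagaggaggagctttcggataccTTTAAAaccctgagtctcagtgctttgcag
Stfa2 (chr16:36408364-36408523, minus strand): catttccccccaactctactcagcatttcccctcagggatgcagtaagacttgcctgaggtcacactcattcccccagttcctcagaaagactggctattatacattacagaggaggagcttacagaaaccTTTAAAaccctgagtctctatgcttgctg
Cstdc4 (chr16:36184052-36184211, plus strand): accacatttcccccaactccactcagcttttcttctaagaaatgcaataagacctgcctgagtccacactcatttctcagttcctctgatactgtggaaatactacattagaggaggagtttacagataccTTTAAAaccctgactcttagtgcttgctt
Cstdc5 (chr16:36367571-36367730, minus strand): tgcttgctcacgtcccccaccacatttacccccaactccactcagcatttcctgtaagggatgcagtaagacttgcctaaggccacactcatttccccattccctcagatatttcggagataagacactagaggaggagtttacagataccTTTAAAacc
Csta2 (chr16:36221402-36221561, plus strand): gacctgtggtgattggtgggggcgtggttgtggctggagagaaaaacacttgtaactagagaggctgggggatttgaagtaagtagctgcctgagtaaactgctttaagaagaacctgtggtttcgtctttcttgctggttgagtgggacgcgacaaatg

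Stfa1, Stfa2, Cstdc4 and Cstdc5 had related upstream sequences, and that of Csta2 was less alike. Over windows from 250 bases before to 50 bases after the start, the 6 pairs among the first 4 genes were 69.7% to 96.1% identical. Stfa1 and Cstdc5 were the closest pair at 96.1%. An identity was kept only for alignments of at least 200 columns. For Csta2 that left only the pair with Stfa2, at 53.4%. The longest stretch shared by the 4 windows, ACCTTTAAAACCC, was picked after the sequences were seen. It occurred on either strand in 9 of 32851 promoter windows (0.0274%), all of them of stefin genes of the block (Stfa1, Stfa2, Stfa3, Stfa2l1, Cstdc3, Cstdc4, Cstdc5, Csta3 and Gm7260). The TTTAAA within it is its own reverse complement and occurred in 13.2% of all windows. Its first base lay 30 bases before the annotated start in Stfa1, 29 in Stfa2, 29 in Cstdc4 and 9 in Cstdc5.

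Letters of myeloid factor motifs were searched on both strands of the same windows. TTNNGNAA, a core of the site of C/EBP factors, which drive granulocyte genes, was present in 4 of the 5 genes and in 40.7% of all windows. GAGGAA, a core of the site of the myeloid factor PU.1, was also present in 4 of the 5, against 28.3% of all windows. For both motifs the gene without a match was Csta2. TATAAA (13.6% of all windows) and the Gfi1 letters TAAATCAC (0.578%) were found in 0 of the 5 windows, and 4 matches of such short and common motifs are a description of these letters only.

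The cells carried the markers of early myeloid cultures. Ptprc, Spi1, Cebpa, Kit, Cd34, Gata2, Elane, Mpo and Ltf were detected on all 17 arrays, where detection means a detection p-value under 0.05 against the negative control beads. Monocyte markers (Csf1r, Cd14, Adgre1) and mast cell and basophil markers (Cpa3, Mcpt8, Prss34, Fcer1a) were detected on all 17 as well. The sorted cells thus held RNA of markers of several lineages, and whether different cells held them was not tested. Of the epidermal genes, Krt5, Krt14 and Lor were detected on 0 of 17 arrays, while Krt10 was detected on 17. The erythroid Hba-a1 and the lymphoid Cd3e were each detected on 2 arrays, the erythroid Klf1 on 7 and the receptor gene Flt3 on 1. Of the eosinophil genes, Prg2 was detected on 17 arrays and Epx on 6. The share of detected probes per array was 34.2% to 38.9%, and the number of arrays limits the precision.

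The stefin probes were well expressed in this culture. Of the 7 probes, 6 were detected on 17 of 17 arrays. The dimmer Stfa2 probe (ILMN_2736774) was detected on 14, and the 3 exceptions were miR-155 array 2, cluster array 6 and miR-125a array 3. Raw intensity of the Stfa1 probe ILMN_2774410 ranged from 965 to 15742 over the arrays, and that of Csta2 from 99.3 to 700. All 7 probes passed the filter on dim probes in both datasets (19159 probes tested in dataset A, 17524 in dataset B), so no member was lost to it. In dataset B cluster array 5 and miR-125a array 2 stood apart from their groups, so results there are given with and without them. All levels below are log2 intensities after background correction and quantile normalization within a dataset, and levels of different probes are not compared, since each probe has its own response.

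**Figure D1:**
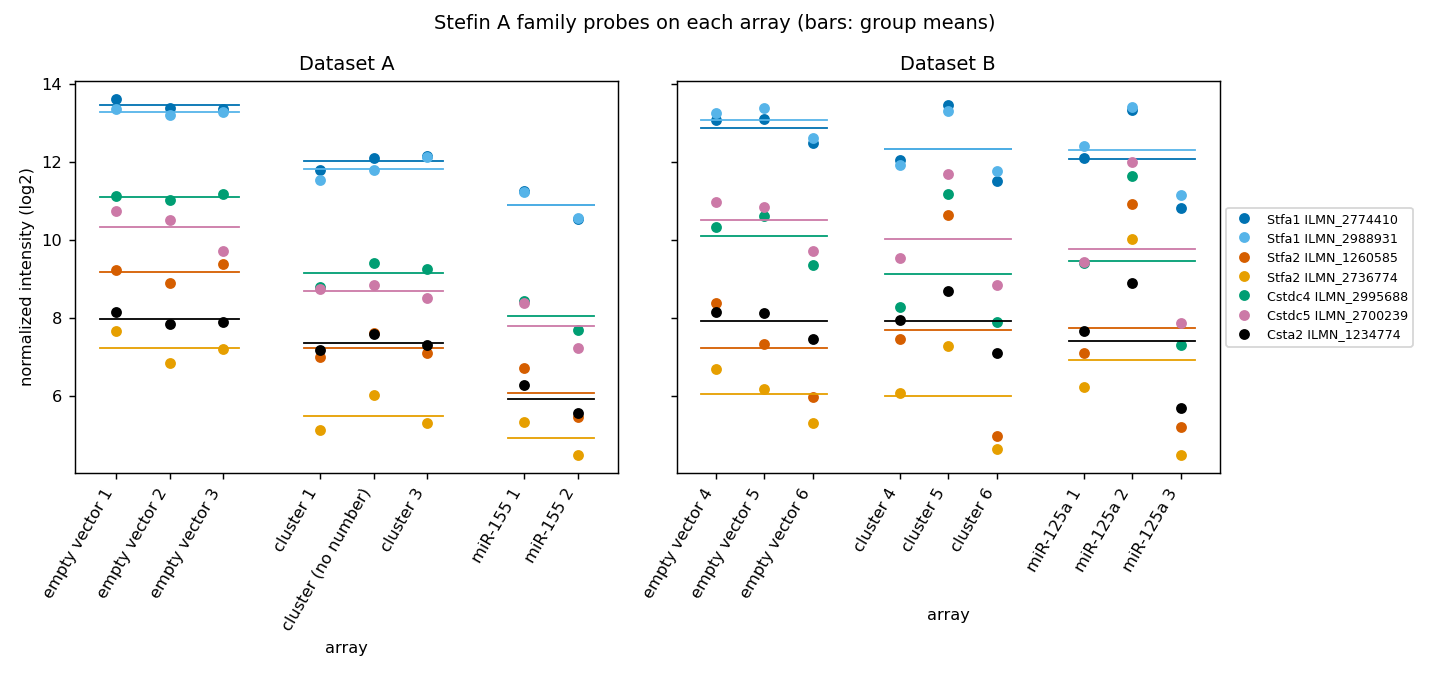
Normalized log2 intensity (vertical axis) of the 7 stefin probes on each of the 17 arrays (horizontal axis), with dataset A on the left and dataset B on the right; each point is 1 array and each horizontal bar a group mean. In dataset A the empty-vector arrays lie above the cluster and miR-155 arrays for each probe, and the genes were picked on those empty-vector and cluster arrays. In dataset B cluster array 5 and miR-125a array 2 lie high while cluster array 6 and miR-125a array 3 lie low.

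In dataset A all 7 probes were lower with the cluster than with the empty vector, by 1.53-fold for Csta2 to 3.85-fold for Cstdc4. The median difference over the 7 probes was -1.63 on the log2 scale, against 0.00 over all 19159 probes tested. Since this contrast picked the genes, these values describe the choice and carry no evidence of their own. For the same reason nothing is read from the counts: 6 of the 7 probes had an adjusted p under 0.05, where 0.198% of all probes were called lower, and the groups did not overlap for 7 of 7, where that held downward for 6.09% of all probes. As these are bulk samples, fewer stefin-expressing cells and less stefin RNA per cell cannot be told apart in any comparison.

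Stfa1 is a stefin A gene of the block and was measured by a pair of probes. Probe ILMN_2774410 stood at 13.61, 13.39 and 13.35 on the empty-vector arrays and at 11.78, 12.09 and 12.16 on cluster array 1, the cluster array without a number and cluster array 3. Every cluster array thus lay more than 1 log2 unit below every empty-vector array, and the difference was -1.44 ± 0.20 (log2, SE, n = 3 and 3), or 2.71-fold. The other Stfa1 probe, ILMN_2988931, gave -1.48 ± 0.20 from levels of 13.36, 13.21 and 13.29 against 11.52, 11.78 and 12.12. Both probes therefore placed Stfa1 alike on these arrays.

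Stfa2, a second stefin A gene of the block, was lower by a similar amount. Its brighter probe, ILMN_1260585, was at 9.23, 8.90 and 9.38 with the empty vector and at 6.98, 7.60 and 7.09 with the cluster, a difference of -1.95 ± 0.26 or 3.85-fold. The dimmer probe, ILMN_2736774, went from 7.66, 6.85 and 7.19 to 5.12, 6.02 and 5.29 (-1.75 ± 0.26). Without background correction that dimmer probe differed by -0.94 only, so its size depends on how background is removed.

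Cstdc4 and Cstdc5, stefin-like genes named for their cystatin domain, lie in the same block. Cstdc4 (ILMN_2995688) stood at 11.13, 11.01 and 11.17 with the empty vector and at 8.80, 9.41 and 9.26 with the cluster. That is -1.95 ± 0.21, or 3.85-fold lower. Cstdc5 (ILMN_2700239) was at 10.74, 10.50 and 9.72 with the empty vector and at 8.74, 8.84 and 8.50 with the cluster. Its difference of -1.63 ± 0.27 (3.09-fold) had the largest SE of the 7 probes, and empty-vector array 3 was the lowest of its group there while it was the highest for Cstdc4.

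Csta2 stood at the margin of the choice. It was at 8.15, 7.84 and 7.88 with the empty vector and at 7.16, 7.57 and 7.30 with the cluster, a difference of -0.61 ± 0.20 or 1.53-fold. It was the probe that did not pass the threshold in this contrast, although its groups did not overlap.

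With miR-155 all 5 stefin genes fell, by 4.13-fold for Csta2 to 8.54-fold for Stfa2. The sizes depend on the background correction: on the authors' series matrix values Csta2 differed by -1.19 and Stfa2 (ILMN_1260585) by -2.07 on the log2 scale, against -2.05 and -3.09 here, and without background correction by -1.28 and -2.20. The miR-155 comparison uses the same empty-vector arrays as the contrast that picked the genes, so it is not independent of the choice, whereas the 2 miR-155 arrays had no part in that contrast. That limit holds for every adjusted p of the 5 genes with miR-155, here and in the paragraphs that follow. All 7 probes passed the test (limma, Benjamini-Hochberg over 19159 probes), with adjusted p from 2.82e-06 for Cstdc4 to 0.000298 for the dimmer Stfa2 probe, while 0.512% of all probes were called lower and 0.104% higher. The median over the 7 probes was -2.52, against 0.00 over all probes. Ordered by the size of the fall, the members held ranks 1 (Stfa2), 2 (Cstdc4), 3 (Stfa1), 4 (Cstdc5), 7 (the other Stfa1 probe) and 11 (Csta2) among the 19159 probes. The dimmer Stfa2 probe is left out of this order, because it was not above background on miR-155 array 2, and its value was -1.06 on series matrix values against -2.33 here. The brighter Stfa2 probe and Csta2 were detected there, but with raw intensities of only 97.9 and 99.3, against an array median of 84.8. Over the alternatives Cstdc4 ran from -3.45 to -2.66 and the brighter Stfa2 probe from -3.72 to -2.07. Which of these 2 fell most thus depends on the processing, and on series matrix values it was Cstdc4.

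The Stfa1 probe ILMN_2774410 read 11.25 and 10.52 on miR-155 arrays 1 and 2, a fall of 5.91-fold from the empty vector (-2.56 ± 0.22, adjusted p = 1.06e-05 by limma, n = 2 and 3). In raw intensity that was 2630 and 965, against 15742, 11937 and 9415. Its second probe read 11.23 and 10.57 (-2.39 ± 0.22). For Stfa2 the probe ILMN_1260585 read 6.70 and 5.45, a fall of 8.54-fold (-3.09 ± 0.29, adjusted p = 1.97e-05 by limma). Both genes thus ended far under the lowest empty-vector array on either miR-155 array, and the groups did not overlap for any of the 7 probes, where that held downward for 11.8% of all probes.

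Cstdc4 fell by 8.30-fold to 8.42 and 7.68 (-3.05 ± 0.23, adjusted p = 2.82e-06 by limma). Cstdc5 fell by 5.74-fold to 8.37 and 7.23 (-2.52 ± 0.30, adjusted p = 0.000205 by limma). Csta2, the gene that moved least with the cluster, was at 6.27 and 5.54 with miR-155, under each cluster array as well as each empty-vector array (-2.05 ± 0.22, adjusted p = 8.40e-05 by limma). The family was lower on miR-155 array 2 than on array 1 for each probe. The mean of the 7 probes was 8.22 on array 1 and 7.35 on array 2, against 8.59, 9.05 and 8.82 on the cluster arrays and 10.24 to 10.55 on the empty-vector arrays. The difference between miR-155 and the cluster was not tested here.

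The difference of the stefin genes with miR-155 kept its direction when 1 array was left out. Each of these settings kept empty-vector arrays that took part in the choice of the genes, so none of them is independent of it. Leaving out each array of dataset A in turn kept all 7 probes under the threshold, and the median ran from -2.93 without miR-155 array 1 to -2.05 without miR-155 array 2. The brighter Stfa2 probe ran from -3.72 to -2.47 between the same settings. With 1 miR-155 array left, that array is assumed to vary like the other groups. With no filter on dim probes, so that 45281 probes were tested, 4 of the 7 were called (3 probes, both of Stfa2 and that of Cstdc5, had adjusted p from 0.0533 to 0.124 by limma).

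**Figure D2:**
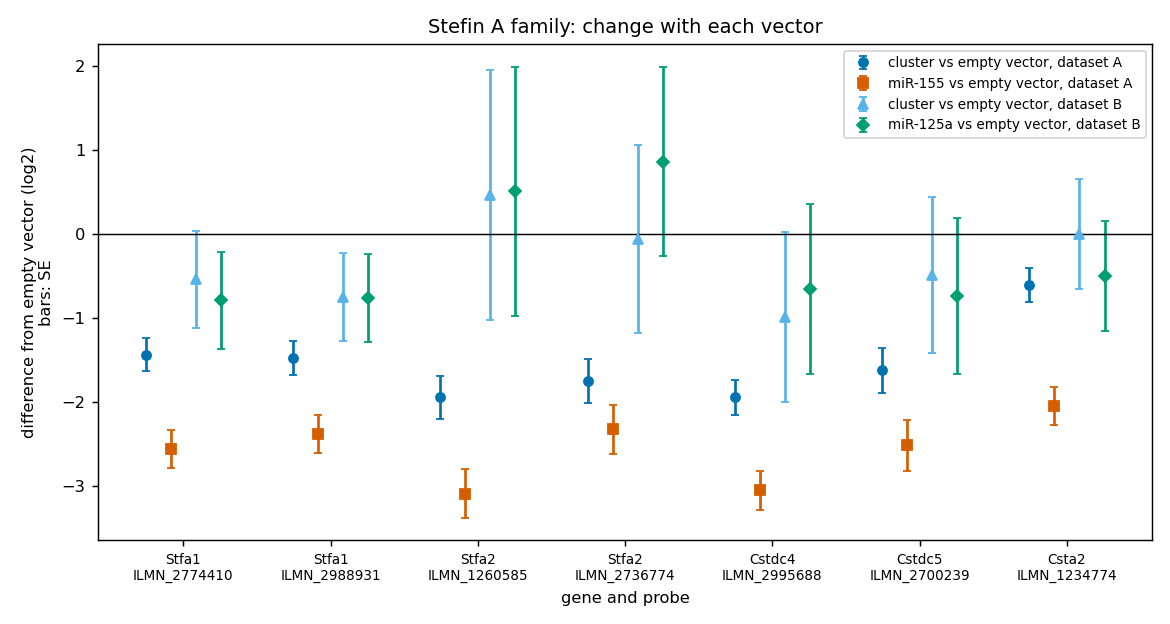
Difference of each vector from the empty vector (log2, vertical axis) for the 7 stefin probes (horizontal axis), within dataset A for the cluster and miR-155 and within dataset B for the cluster and miR-125a; bars are SE. The miR-155 values lie between -3.09 and -2.05, while in dataset B the bars are several times longer and most of them reach or cross 0.

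In dataset B no stefin probe passed the test with the cluster, and the SE were several times those of dataset A. The differences ran from -0.99 ± 1.01 for Cstdc4 to 0.46 ± 1.49 for the brighter Stfa2 probe, with a median of -0.49 against 0.01 over all 17524 probes tested. The lowest unadjusted p was 0.178 and the lowest adjusted p 0.738 (limma), and 0 of the 7 probes passed even an unadjusted 0.05, which 9% of all probes did. The groups overlapped for each stefin probe, whereas 6.25% of all probes were lower without overlap. In the same comparison 0.00571% of all probes were called, so a count of 0 among 7 is near that background. The 95% interval for the Stfa1 probe ILMN_2774410 ran from -1.82 to 0.73, which includes 0 and the -1.44 seen in dataset A. That for Cstdc4 ran from -3.22 to 1.24, which includes 0 and the -1.95 of dataset A. Both dataset A values come from the contrast that picked the genes, so nothing is read from their lying inside. Whether the cluster's difference itself changed between the datasets was not tested.

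The array values show where the spread lay. Stfa1 (ILMN_2774410) was at 13.06, 13.09 and 12.48 on empty-vector arrays 4 to 6, and at 12.04, 13.45 and 11.51 on cluster arrays 4 to 6. Cstdc4 was at 10.33, 10.62 and 9.35 with the empty vector and at 8.27, 11.17 and 7.89 with the cluster. For both of these probes cluster arrays 4 and 6 were under all empty-vector arrays and cluster array 5 was above them. The other Stfa1 probe, ILMN_2988931, read 13.30 on cluster array 5, under the 13.38 of empty-vector array 5. The brighter Stfa2 probe varied most, from 4.96 on cluster array 6 to 10.65 on cluster array 5, with the empty vector at 8.39, 7.33 and 5.96 between them. Cstdc5 (9.52, 11.69 and 8.83 against 10.96, 10.84 and 9.72) and Csta2 (7.93, 8.69 and 7.09 against 8.14, 8.12 and 7.47) had the same order of cluster arrays.

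With miR-125a alone the stefin genes also did not pass the test in dataset B. The differences ran from -0.79 ± 0.58 for the Stfa1 probe ILMN_2774410 to 0.86 ± 1.12 for the dimmer Stfa2 probe, with a median of -0.65 against 0.02 over all probes. The lowest adjusted p was 0.674 and the lowest unadjusted p 0.171 (limma). Of all probes 0% were called in this comparison and 9.49% had an unadjusted p under 0.05, against 0 of the 7. The groups overlapped for each stefin probe (5.94% of all probes were lower without overlap), and the empty-vector arrays are those of the cluster comparison. Stfa1 (ILMN_2774410) stood at 12.10, 13.33 and 10.83 on miR-125a arrays 1 to 3, and Cstdc4 at 9.42, 11.63 and 7.29. Array 2 was above all empty-vector arrays and array 3 under all of them for both genes. Csta2 followed the same order at 7.66, 8.90 and 5.67, and Cstdc5 was highest on array 2 and lowest on array 3 (7.86) too.

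The cluster and its member miR-125a could not be told apart at the stefin genes. Their differences had a median of 0.01 and ran from -0.92 ± 1.12 for the dimmer Stfa2 probe to 0.50 ± 0.65 for Csta2, and 0 of 7 probes were called (0% of all probes) or had an unadjusted p under 0.05 (4.18% of all probes). The 95% interval for Stfa1 (ILMN_2774410) ran from -1.03 to 1.53 and for Cstdc4 from -2.56 to 1.89, so differences of more than 2-fold in either direction lie inside them.

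Cluster array 5 and miR-125a array 2 stood apart from the other arrays of their groups. The mean of the 7 stefin probes was 10.89 on cluster array 5, against 9.03 and 8.10 on cluster arrays 4 and 6. It was 11.46 on miR-125a array 2, against 9.19 and 7.49 on arrays 1 and 3, and 10.12, 9.93 and 8.98 on the empty-vector arrays. The pooled within-group SD of this mean was 1.45 in dataset B and 0.33 in dataset A. The spread thus came from both ends, as cluster array 6 and miR-125a array 3 were the lowest of dataset B.

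Without those 2 high arrays, an alternative chosen after seeing the data, all 7 differences were below 0 in both comparisons. The cluster then had a median of -1.10, from -0.40 ± 0.51 for Csta2 to -2.02 ± 0.56 for Cstdc4 (n = 2 and 3). For miR-125a the median was -1.31, and the values ran from -0.70 ± 0.59 for the dimmer Stfa2 probe to -1.86 ± 0.49 for Cstdc5. Still 0 of the 7 probes were called in either comparison (0% of all probes in both), with lowest adjusted p of 0.454 and 0.491 (limma). An unadjusted p under 0.05 was reached downward by 4 probes for the cluster (3.14% of all probes) and by 5 for miR-125a (3.87%). Taking the highest array from a group lowers its mean by construction, and the empty-vector arrays were all kept. Without both arrays numbered 5, empty vector and cluster, the cluster's median was -0.998. Leaving out the low arrays instead turned the sign of the median, to 0.10 for the cluster without cluster array 6 and to 0.37 for miR-125a without miR-125a array 3.

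The mean of neutrophil genes outside the primary granules had an order over the arrays close to that of the stefin genes, but not every gene of the list followed it. A list of 21 neutrophil granule and maturation genes was set with earlier results of these data known, and the 16 tested members of it outside the primary granules averaged 8.78, 8.51 and 8.62 on the empty-vector arrays of dataset A. They averaged 7.84, 8.02 and 7.90 with the cluster and 7.64 and 7.53 with miR-155, so the order of the groups was that of the stefin genes. In dataset B the 14 tested members averaged 9.85 on cluster array 5 and 10.12 on miR-125a array 2, against 7.70 to 8.71 on the other 7 arrays. These are the 2 arrays where the stefin genes were highest. On miR-125a array 3, where the stefin mean was lowest (7.49), the neutrophil mean was 8.40, above empty-vector arrays 4 and 6 (8.30 and 7.94). The summed level of the list ran from 96452 to 121433 in dataset A and from 120025 to 190294 in dataset B, and the list's part in the stefin differences was not tested. For some genes of the list the correlation with the stefin mean was below 0 in 1 dataset and above 0 in the other. Over the 8 arrays of dataset A it was -0.38 for the calprotectin gene S100a8, -0.16 for the chemokine receptor gene Cxcr2 and -0.08 for Mpo. In dataset B these genes had 0.72, 0.61 and 0.75. Over the 9 arrays of dataset B it was -0.47 for Ctsg, -0.24 for Elane, -0.13 for Prtn3 and -0.03 for the collagenase gene Mmp8. In dataset A these had 0.30, 0.67, 0.60 and 0.71.

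**Figure D3:**
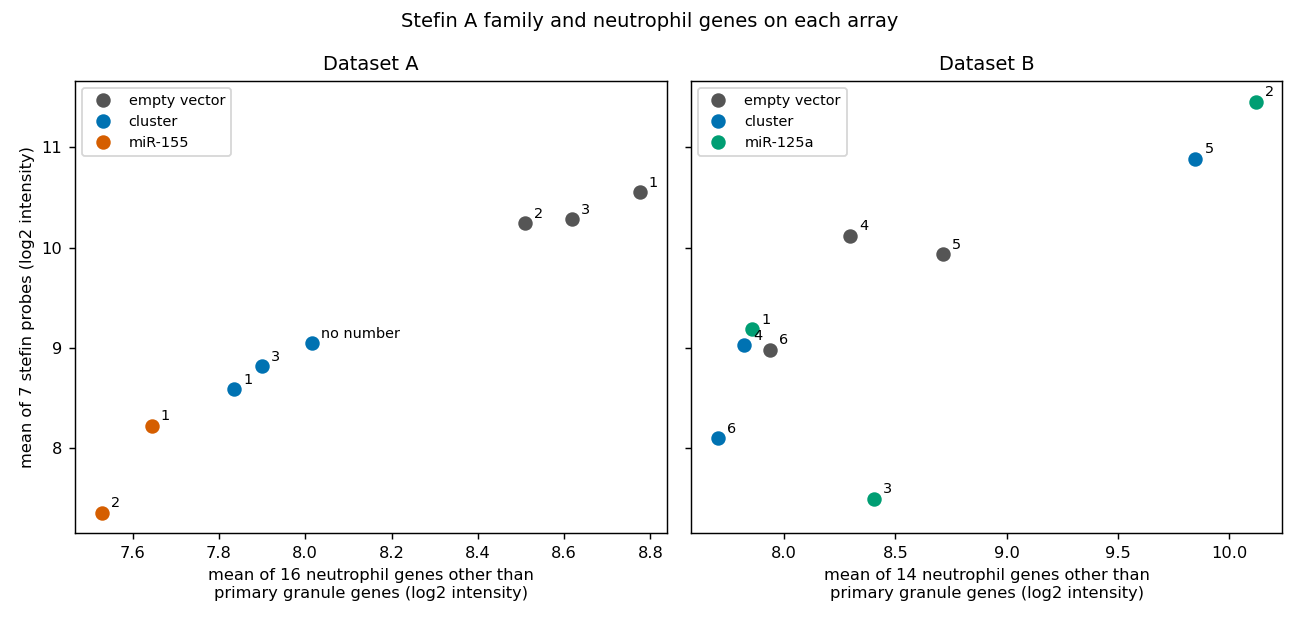
Mean of the 7 stefin probes (log2 intensity, vertical axis) against the mean of neutrophil genes other than primary granule genes (log2 intensity, horizontal axis), with 16 genes in dataset A (left) and 14 in dataset B (right); each point is 1 array, numbered as labelled. In dataset A the groups line up with both means, and in dataset B cluster array 5 and miR-125a array 2 are high in both while miR-125a array 3 is low in the stefin mean only.

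Genes of the neutrophil list were called in dataset A, but 0 of its 4 primary granule genes. The list was set with earlier results of these data known, so its counts and adjusted p are a description only. With miR-155, 7 of 20 tested genes of the list were lower past the threshold and 0 higher, where 0.512% of all probes were called lower. Among them were Ltf, the iron-binding protein lactoferrin of specific granules (-2.44 ± 0.24, adjusted p = 2.46e-05 by limma), and Itgb2l, an integrin beta chain of granulocytes (-2.11 ± 0.22, adjusted p = 4.64e-05 by limma). The others named by rule were Chil3, a chitinase-like protein (-2.01 ± 0.23), and Cd177, a neutrophil surface protein (-1.96 ± 0.25). With the cluster in dataset A, 5 of 20 were called lower (0.198% of all probes), led by Ltf at -1.999 ± 0.21, and 6 of the 20 had values above 0, of which 0 were called and Cxcr2 was the highest at 0.70 ± 0.18. The mean of the primary granule genes Mpo, Elane, Prtn3 and Ctsg, which are made at the promyelocyte stage, stayed between 13.95 and 14.21 on all 8 arrays of dataset A. These 4 genes lie near the top of the intensity scale, where a rise has little room to show and a fall may also show reduced. The effect of this on their differences was not tested. In dataset B 0 of 18 tested genes of the list were called with the cluster or with miR-125a.

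The rest of the stefin block gave weaker signals. On chromosome 16 the order in the RefSeq gene list was Csta1, Stfa2l1, Cstdc4, Csta3, Csta2, Stfa1, Cstdc3, Cstdc6, Cstdc5, Gm7260, Stfa2 and Stfa3. Csta3, another stefin of the block, was detected on 17 of 17 arrays and fell with miR-155 (-1.51 ± 0.31, adjusted p = 0.0263 by limma). With the cluster Csta3 differed by -0.22 ± 0.28, within its error, although its neighbours on either side are Cstdc4 and Csta2. Cstdc6, detected on 8 arrays, differed by -0.43 ± 0.17 with the cluster and -0.58 ± 0.19 with miR-155, and Stfa2l1, detected on 11 by 1 probe and on 0 by another, by -0.34 ± 0.20 and -0.59 ± 0.22. In dataset A Cstdc6 was detected on 3 arrays, all of them empty-vector arrays. Stfa2l1 was detected there on 4, the empty-vector arrays and the cluster array without a number. Both passed the filter through the empty-vector arrays, so values below 0 follow from the filter and nothing is read from them. Neither Cstdc6 nor Stfa2l1 was called. Cstdc3 and Stfa3 were detected on 0 of 17 arrays and Csta1 on 1, so their levels were not above background in nearly all samples.

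**Figure D4:**
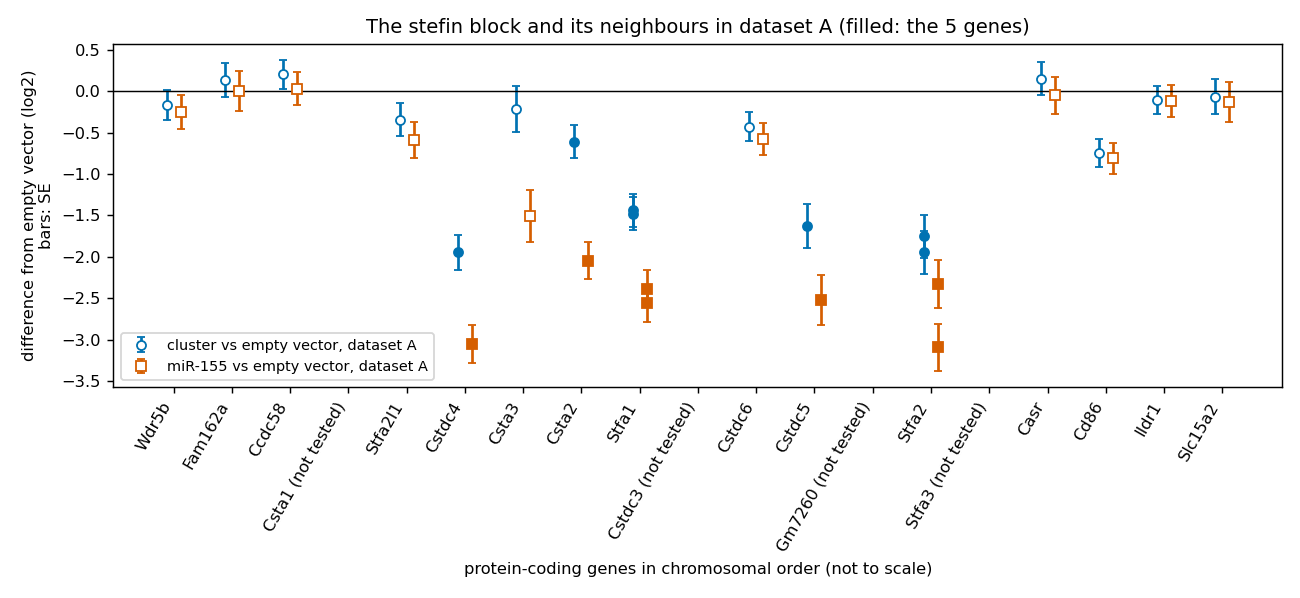
Difference from the empty vector in dataset A (log2, vertical axis; bars are SE) for the stefin genes and their nearest protein-coding neighbours in chromosomal order (horizontal axis, not to scale), with filled symbols for the 5 genes described and open symbols for other genes. The filled symbols lie between -3.09 and -0.61, while the genes on both sides of the block, with Cd86 at -0.75 and -0.81 as the exception, lie within about 0.3 of 0. Of these, Casr, Ildr1, Slc15a2 and Wdr5b were detected on only 2 to 4 of the 8 arrays, so a fall could hardly show at them.

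None of the genes flanking the block was called. Of 10 genes counted as the 5 nearest on each side of the outermost members, which include Csta1, Stfa2l1 and Stfa3, 8 were tested in dataset A and 0 were called with the cluster or miR-155. Their medians were -0.09 and -0.13, against -1.63 and -2.52 for the stefin probes, where -1.63 comes from the contrast that picked the genes. Casr, Ildr1, Wdr5b, Slc15a2 and Stfa2l1 were detected on only 2 to 4 of the 8 arrays, so a fall could hardly show at them. Ccdc58, Fam162a and Cd86 were detected on all 8. The nearest to a call was Cd86, a costimulatory receptor of antigen-presenting cells, at -0.75 ± 0.17 with the cluster (adjusted p = 0.0661 by limma) and -0.81 ± 0.19 with miR-155 (0.0602). In dataset B 0 of the 7 tested neighbours were called.

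Csta3 was the only other cystatin called. Of 19 further symbols of the superfamily, 15 were on the array and 6 were tested in dataset A, of which 0 were called with the cluster and 1, Csta3, with miR-155. Cstb, which encodes the ubiquitous stefin B, differed by 0.56 ± 0.16 with the cluster (adjusted p = 0.249 by limma) and -0.11 ± 0.18 with miR-155. Cst3, the secreted cystatin C, differed by 0.08 ± 0.16 and -0.11 ± 0.18, and Cst7, cystatin F of immune cells, by 0.05 ± 0.18 and 0.04 ± 0.20. In dataset B 0 of 7 tested were called with either vector, with Cstb at 0.34 ± 0.13 with the cluster (adjusted p = 0.493 by limma).

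Among the proteases that stefins or other cystatins inhibit, 1 was called. Of 11 cysteine protease genes 7 were tested in dataset A, and with the cluster 0 were called, at a median of -0.19. The largest differences were Lgmn, the asparaginyl protease legumain (-0.69 ± 0.19, adjusted p = 0.185 by limma), and Ctsh, the aminopeptidase cathepsin H (-0.63 ± 0.16, adjusted p = 0.139 by limma). With miR-155 only Ctsh of the 7 was called (-0.82 ± 0.18, adjusted p = 0.0414 by limma), at a list median of -0.38. In dataset B 0 of 6 tested proteases were called with the cluster or miR-125a.

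The 7 stefin probes varied together over the arrays. Over the 8 arrays of dataset A their 21 pairwise Pearson correlations ran from 0.86 to 0.99, with a median of 0.95. Over the 9 arrays of dataset B they ran from 0.73 to 0.98, with a median of 0.88. The points share the groups, and in dataset B the 2 high arrays, and near-identical sequences may share signal, so these are descriptions of the arrays. In dataset A, where the genes were picked for a difference between groups, high values follow from the choice.

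The genes whose levels were most like the stefin mean were sought among all genes. Over the 8782 genes detected in both datasets, likeness was the mean of the correlation over the 8 arrays of dataset A and that over the 9 arrays of dataset B. The highest was Dpep2, a membrane dipeptidase, at 0.92 (0.97 in dataset A and 0.88 in dataset B). It was followed by the inhibitory receptor gene Pilra (0.91), Cd177 (0.90), Lilr4b of the leukocyte immunoglobulin-like receptors (0.89), the stefin block gene Cstdc6 (0.89), the phagocyte receptor gene Sirpa (0.89), the cytochrome oxidase subunit gene Cox6a2 (0.88) and Ltf (0.88). These genes were picked for likeness over the same arrays, so a lower level with miR-155 is built into the choice and is given without a test. Against the empty vector Dpep2 differed by -1.74 ± 0.19 with miR-155, Pilra by -1.17 ± 0.24, Cox6a2 by -1.07 ± 0.21, Lilr4b by -0.63 ± 0.21 and Sirpa by -0.36 ± 0.19.

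In order of the group means, the stefin mean in dataset A was 10.36 ± 0.17 (SD, n = 3) with the empty vector, 8.82 ± 0.23 (n = 3) with the cluster and 7.79 ± 0.62 (n = 2) with miR-155. The gap between empty vector and cluster reflects the choice of the genes, and that between cluster and miR-155 was not tested. In dataset B it was 9.68 ± 0.61 with the empty vector, 9.38 ± 1.99 with miR-125a and 9.34 ± 1.42 with the cluster (n = 3 each), so neighbours in that order differed by less than their spread. Levels were normalized separately in the datasets and are not compared between them.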

How the data were processed

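Cells were profiled on 17 arrays from 100 ng of RNA each. The intensity values, bead means per probe, and the detection p-value of each probe come as deposited, per the file headers, with GenomeStudio named in the submitters' processing notes (version not given). The authors' deposited log2 values (series matrix) served as an alternative. How the authors made them: not given in the sources used here. One cluster array of dataset A carries the header of cluster array 1 and was used without a number. The design text speaks of biological triplicates, but 2 miR-155 arrays were analysed here. Of 136 array pairs, 0 held identical values.

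Under R 4.3.3, limma 3.58.1 removed background (normexp, controls inferred from detection, offset 16) and normalized quantiles within each dataset. Probes detected (p-value under 0.05) on 2 or more arrays (A) or 3 or more (B) entered 1 fit per dataset (lmFit, contrasts, eBayes, all groups sharing the spread), Benjamini-Hochberg adjusted over all probes, threshold 0.05, after the steps were tested on simulated data. Of all probes, 34885 had 1 annotated symbol. The annotation of symbols can be old. Sequences and gene order came from RefSeq (GRCm38.p6). All 5 genes matched.

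Deviations of same-numbered empty-vector and cluster arrays of dataset B had weak correlations of 0.11, 0.16 and 0.16, against -0.17 to 0.02 for differently numbered ones. Correlations this weak do not establish that the numbers pair the arrays. The main fit therefore used no pairing, and a replicate block served as an alternative. The members and gene lists were chosen with earlier results of these data known. Besides the members, the rule named up to 4 called genes per list and comparison, or, where 0 were called, up to 2 by size, and the 8 genes most like the stefin mean. Alternatives were no background correction, series matrix values, median scaling, other filters, 1 probe per gene, array weights, a trended robust prior, each array left out and a replicate block.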

Additional observations from a re-analysis of the deposited data

How the results depend on the processing

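The cluster contrast of dataset A chose the genes, so its direction is fixed by the choice and its settings carry no evidence. There the median was -1.77 to -1.44 and the count past the threshold ranged from 6 to 0. It was 3 under median scaling and 0 with no filter on dim probes, where 45281 probes entered the fit. It was 4 on series matrix values and 1 with the replicate block on the same values, although the numbers there share only a number (same-number correlations of -0.16, -0.02 and 0.37). Leaving out 1 array gave 5 to 6, Cstdc5 being lost without empty-vector array 1 or cluster array 3. For miR-155 the count was 4 with no filter and the median was -2.10 on series matrix values and -2.87 under median scaling, which moved the median of all probes to -0.25. Leaving out 1 array gave a count of 7 to 7 and medians of -2.93 to -2.05, and the replicate block (2 pairs) gave 7. For miR-125a 1 probe, the dimmer Stfa2 probe at 1.21, was called higher under median scaling, where the median of all probes was 0.42 and 3419 probes were called. In dataset B leaving out 1 array gave 0 called each time. The medians were -1.10 to 0.10 for the cluster, -1.31 to 0.37 for miR-125a and -0.71 to 0.87 between them. The replicate block, which treats same-numbered arrays there as pairs, gave 0 and changed no call. The count over all probes, 73 for the cluster in dataset A and 118 for miR-155, fell to 13 and 34 with no filter. For the cluster in A it was 44 without background correction, 47 on series matrix values, 22 under median scaling, 7 with the block and 39 to 80 with 1 array left out. For miR-155 it was 78 and 79 in the first of these 2, 291 with the block and as low as 29 without miR-155 array 2. In dataset B the cluster's 1 became 10, 7, 107 and 26 without background correction, on series matrix values, under median scaling and with the trended robust prior, and miR-125a's 0 became 6, 6, 3419 and 15. Between cluster and miR-125a the 0 became 7 under median scaling. The causes were not tested. Signal over background limits the dimmer Stfa2 probe most.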
